A study of Saccharomyces cerevisiae with 6 samples.

Results

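The 10 genes described here encode the mitochondrial enzymes of the citrate cycle in budding yeast (Saccharomyces cerevisiae): CIT1, ACO1, IDH1, IDH2, KGD1, KGD2, LSC1, LSC2, FUM1 and MDH1. They were found by gene symbol in the platform annotation, and each has 1 probe set among the 9335 of the array. They are 10 of 5656 genes that the array names by a probe set with 1 symbol. All 10 passed the filter on dim signal. Transcript levels came from 6 single-sample arrays. By title, K91A 1, K91A 2 and K91A 3 carried RNA of a strain with a histone H4 allele in which lysine 91 is replaced by alanine (K91A). WT 1, WT 2 and WT 3 by title carried RNA of a strain with wild-type histone H4 (WT). The description of K91A 3 says WT instead. Both strains grew in YPD, a rich medium with glucose, and total RNA was taken in exponential growth. Strain backgrounds, other alleles and mating types are not stated in the labels.

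The citrate cycle oxidises acetyl-CoA in the mitochondrial matrix and passes electrons to the respiratory chain. It also supplies 2-oxoglutarate and oxaloacetate for amino acid synthesis. In yeast growing on glucose, transcription of most of its genes is held down, and the Hap2/3/4/5 activator raises it when glucose runs out. The retrograde regulators Rtg1, Rtg2 and Rtg3 maintain CIT1, ACO1, IDH1 and IDH2, the genes of the first steps, when respiration is impaired.

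Values are log2(intensity + 16) after quantile normalization, so a difference is relative to the bulk of transcripts. K91A 3 is K91A by its title and WT by its description. It had the lowest median intensity, 745, against 2040 and 2564 on the other K91A arrays and values between 1828 and 3117 for WT. The ratio of 5' to 3' signal of actin, a measure of RNA integrity and labelling, lay between 0.843 and 0.877 for K91A and between 0.110 and 0.365 for WT. The same ratio was 0.191 to 0.480 for K91A and 0.10 to 0.177 for WT with the SRB4 control, and 0.302 to 0.675 for K91A and 0.0837 to 0.445 for WT with the SPT15 control, where the strains overlapped. The 10 probe sets lay between the 78.6 and 97.7 percentile of their array on every array, so none was among the dimmest. No detection calls came with the values, the number of arrays limits the precision, and the labels do not say whether replicates were separate cultures. The p-values therefore cover the variation among these arrays, which may be technical.

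Among the 10 genes, MDH1 and LSC1 were higher in K91A and none was lower past an adjusted p of 0.05 in limma's test over all 6931 probe sets tested. The other 8 did not pass. With K91A 3 left out, MDH1 (1.02, adjusted p = 0.0126) and LSC1 (0.61, adjusted p = 0.0422) still passed. With K91A 3 counted as WT, 0 of the 10 genes and 0 of all probe sets passed in limma, with 1056 probe sets at an unadjusted p under 0.05. Across all probe sets tested, 15.4% were higher and 14.8% lower in K91A, so 2 of 10 higher is near the background. The arrays of the strains did not overlap for 5 of the 10 genes against 51.1% of all probe sets. K91A lay above WT for 3 of them and below for 2, against 23.7% and 27.5% of all probe sets. The median log2 fold change of the 10 genes, K91A minus WT, was 0.10, and that of all probe sets was -0.07. The largest value belonged to the last enzyme of the cycle and the smallest to the one just before it.

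**Figure D1:**
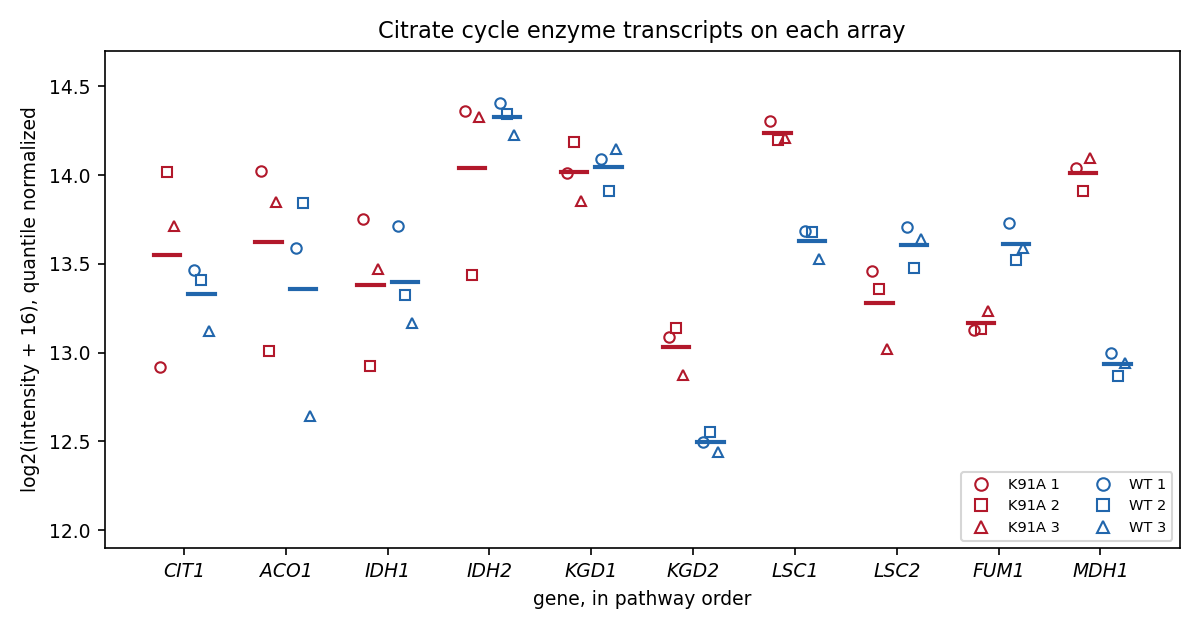
Log2(intensity + 16) after quantile normalization for the 10 citrate cycle genes in pathway order, with K91A arrays in red left of WT arrays in blue. Points are single arrays and bars are means of 3. MDH1 and LSC1 lie higher on every K91A array than on any WT array, while CIT1, ACO1, IDH1 and IDH2 spread widely among the K91A arrays.

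The first steps, from acetyl-CoA to 2-oxoglutarate, gave no difference past the threshold. CIT1 (YNR001C), the mitochondrial citrate synthase that starts the cycle, had log2 levels of 12.92, 14.02 and 13.71 on the K91A arrays, in the order of their numbers, and 13.47, 13.41 and 13.12 on the WT arrays. K91A 1 lay below and the other K91A arrays above all WT arrays, so the strains overlapped. Its log2 fold change was 0.22 (SE 0.30, limma adjusted p = 0.597, n = 3 each).

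ACO1 (YLR304C), the aconitase that converts citrate to isocitrate, had log2 levels of 14.02, 13.01 and 13.85 on the K91A arrays and 13.59, 13.85 and 12.64 on the WT arrays. Each strain held 1 array well below its other arrays, K91A 2 and WT 3, and the strains overlapped. Its log2 fold change was 0.27 (SE 0.39, limma adjusted p = 0.625, n = 3 each), with a 95% interval of -0.65 to 1.19.

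IDH1 (YNL037C) and IDH2 (YOR136W) encode the subunits of the NAD-linked isocitrate dehydrogenase, a main control point of the cycle. IDH1 had log2 levels of 13.75, 12.92 and 13.47 on the K91A arrays and 13.71, 13.32 and 13.17 on the WT arrays. IDH2 had 14.36, 13.44 and 14.32 on the K91A arrays and 14.41, 14.34 and 14.23 on the WT arrays. Both were lowest on K91A 2, and both overlapped between the strains. The log2 fold change was -0.02 (SE 0.26, limma adjusted p = 0.966) for IDH1 and -0.29 (SE 0.26, limma adjusted p = 0.428) for IDH2, n = 3 each. Without K91A 2 they were 0.22 and 0.02, and neither passed.

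These genes of the first steps varied more among the K91A arrays than the other 6. The SD of the 3 K91A arrays was 0.567 for CIT1, 0.542 for ACO1, 0.422 for IDH1 and 0.524 for IDH2, on the log2 scale. For the other 6 genes it was 0.059 to 0.230, and the median over all probe sets was 0.322. K91A 2 was the lowest K91A array for ACO1, IDH1 and IDH2 and the highest for CIT1. Among the WT arrays the SD was 0.185 for CIT1, 0.634 for ACO1, 0.280 for IDH1 and 0.091 for IDH2, with a median of 0.200 over all probe sets. No test was made of these spreads.

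The 2-oxoglutarate dehydrogenase complex oxidises 2-oxoglutarate to succinyl-CoA. KGD1 (YIL125W), its E1 subunit, had log2 levels of 14.01, 14.18 and 13.85 on the K91A arrays and 14.09, 13.91 and 14.14 on the WT arrays. The strains overlapped, and the log2 fold change was -0.03 (SE 0.15, limma adjusted p = 0.882, n = 3 each), with a 95% interval of -0.39 to 0.33. KGD2 (YDR148C), the E2 subunit that carries the lipoate arm, had 13.09, 13.14 and 12.88 on the K91A arrays and 12.50, 12.55 and 12.44 on the WT arrays. All K91A arrays lay above all WT arrays for KGD2. The difference was 0.54 on the log2 scale, or 1.45-fold, and lay just outside the threshold (SE 0.17, limma adjusted p = 0.0504, n = 3 each). With protein-coding probe sets alone KGD2 passed (0.55, adjusted p = 0.0366). Without scaling between arrays it had -0.33 (adjusted p = 0.739).

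Succinyl-CoA ligase releases the free energy of succinyl-CoA as nucleoside triphosphate, and its subunits lay on opposite sides. LSC1 (YOR142W), the alpha subunit, had log2 levels of 14.31, 14.20 and 14.21 on the K91A arrays and 13.68, 13.68 and 13.53 on the WT arrays. The K91A arrays were all above the WT arrays, with little spread in either strain. LSC1 rose 1.52-fold in K91A, a difference of 0.61 on the log2 scale (SE 0.13, limma adjusted p = 0.0168, n = 3 each). LSC2 (YGR244C), the beta subunit, had 13.46, 13.36 and 13.02 on the K91A arrays and 13.71, 13.47 and 13.64 on the WT arrays. Here all K91A arrays lay below all WT arrays, though K91A 1 and WT 2 were close, and the difference of -0.32 did not pass (SE 0.18, limma adjusted p = 0.207, n = 3 each). The LSC1 call ended without K91A 1 (adjusted p = 0.0537), without WT 1 (0.0621) or without WT 2 (0.0700). It also ended with median centring, where LSC1 was at 0.34 (adjusted p = 0.315). Without scaling between arrays it was at -0.30 (adjusted p = 0.723).

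FUM1 (YPL262W) encodes fumarase, made from 1 gene for both the mitochondrion and the cytosol. Its log2 levels were 13.13, 13.13 and 13.23 on the K91A arrays and 13.73, 13.52 and 13.59 on the WT arrays. All K91A arrays lay below all WT arrays. The log2 fold change was -0.45 (SE 0.15, 95% interval -0.81 to -0.09), and it did not pass (limma adjusted p = 0.062, n = 3 each). Without K91A 2 it passed at -0.44 (adjusted p = 0.0492), and with the trend of signal on gene length removed it passed at -0.48 (adjusted p = 0.0386). FUM1 is 1467 nt long, above the median of 1287 nt for protein-coding probe sets, and longer genes had the higher fold changes across the array. Taking out this trend can lower such a gene by its construction, so that pass is not read as a call. In all FUM1 passed in 4 of 21 other settings, this one included.

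MDH1 (YKL085W) encodes the mitochondrial malate dehydrogenase, which regenerates oxaloacetate. It had log2 levels of 14.040, 13.908 and 14.093 on the K91A arrays and 12.998, 12.867 and 12.940 on the WT arrays. The strains were far apart relative to the spread, with an SD of 0.10 in K91A and 0.07 in WT. MDH1 rose 2.11-fold in K91A, a difference of 1.08 on the log2 scale (SE 0.15, 95% interval 0.73 to 1.43, limma adjusted p = 0.0037, n = 3 each). It passed without any 1 array (log2 fold change 1.02 to 1.15, adjusted p = 0.00462 to 0.0273). With median centring it lay just inside the threshold (0.84, limma adjusted p = 0.0488). Before arrays were brought to a common scale, its deposited intensities were 16788.2, 13156.8 and 8120.85 on the K91A arrays and 11251.3, 12513.9 and 8444.5 on the WT arrays. Those overlap, and the log2 fold change was 0.20 (adjusted p = 0.833), while the median of all probe sets was -0.82. The rise of MDH1 is thus relative to the bulk of transcripts on the same arrays.

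The 2 calls were set beside gene length, because the actin ratio differed between the strains. The 10 genes are 990 to 3045 nt long in the RefSeq gene table, and LSC1 and MDH1 are the shortest. The 2851 protein-coding probe sets in this length range had a median log2 fold change of 0.03. Of them, 18.2% were higher and 11.3% lower in K91A. Across 5391 protein-coding probe sets, Spearman's rho of log2 fold change with gene length was 0.229, and across the 10 genes it was -0.430. Both are descriptions over genes, which are not independent replicates. With each array's trend on length removed, MDH1 was at 1.18 (adjusted p = 0.00299) and LSC1 at 0.73 (adjusted p = 0.00648). Shorter genes had the lower fold changes across the array, so taking out this trend raises short genes by its construction, and these values bear on neither call. The part of the 5' to 3' ratios in these differences was not tested.

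**Figure D2:**
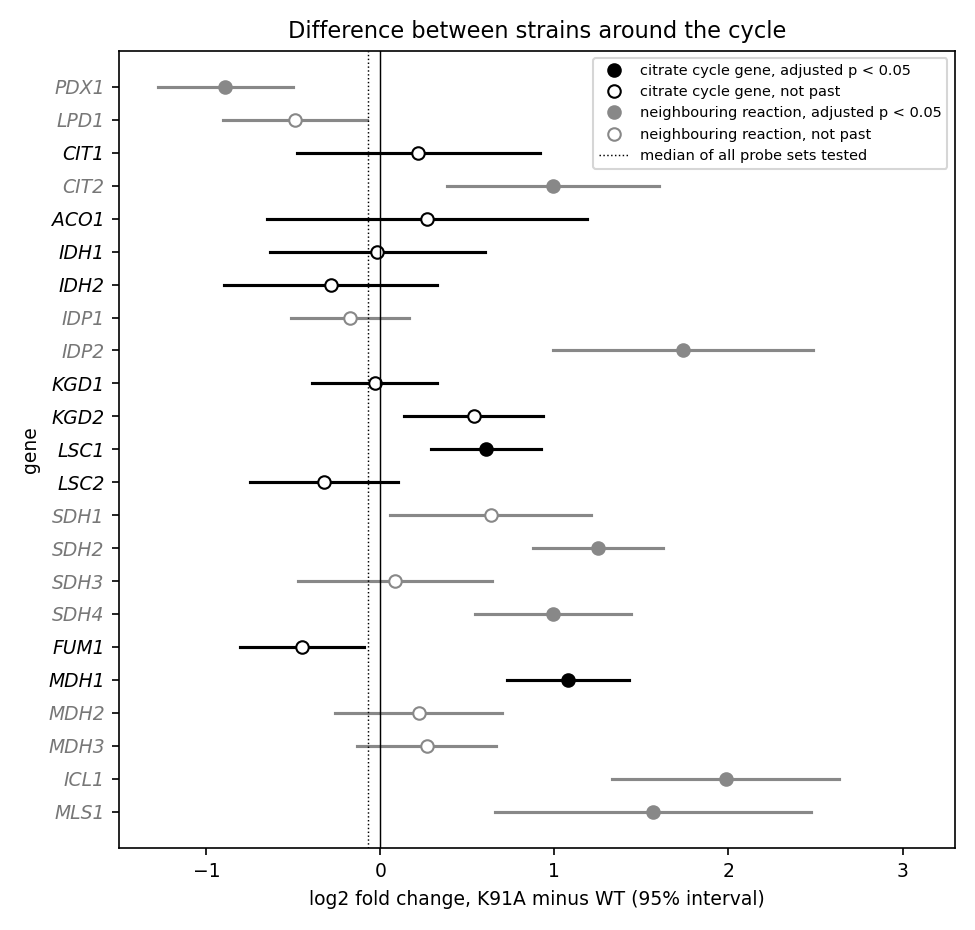
Log2 fold change, K91A minus WT, with its 95% interval from limma for the 10 citrate cycle genes (black) and genes of adjoining reactions (grey), from pyruvate entry at the top. Filled points passed an adjusted p of 0.05, and the dotted line is the median of all probe sets tested, -0.07. MDH1 and LSC1 are the filled black points, at 1.08 and 0.61, while FUM1 lies at -0.45.

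Partner genes were then compared within each array, a measure that scaling between arrays hardly moves. Such a difference mixes the response of separate probes, so only its change between the strains is read. LSC1 minus LSC2 was 0.84, 0.84 and 1.19 on the K91A arrays and -0.02, 0.20 and -0.11 on the WT arrays, on the log2 scale. The strains did not overlap, and the mean differed by 0.93 in the direction of more LSC1 relative to LSC2 in K91A (exact two-sided permutation p = 0.1, adjusted p = 0.125 over 5 pairs, n = 3 each). A p of 0.1 is the smallest that 3 against 3 arrays can give, so no pair could pass. On the values as deposited this difference was 0.93 as well. With K91A 3 counted as WT, as its description has it, the difference was 0.53 and the arrays overlapped (exact permutation p = 0.4).

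KGD1 minus KGD2 was 0.92, 1.05 and 0.98 on the K91A arrays and 1.59, 1.36 and 1.70 on the WT arrays. The mean was lower by -0.57 in K91A, without overlap (exact permutation p = 0.1, adjusted p = 0.125, n = 3 each). With K91A 3 counted as WT it was -0.42, with overlap (exact permutation p = 0.2). IDH1 minus IDH2 was -0.61, -0.51 and -0.85 on the K91A arrays and -0.70, -1.02 and -1.06 on the WT arrays. These overlapped, and the difference of 0.27 gave an exact permutation p of 0.2 (adjusted p = 0.2, n = 3 each). Since 51.1% of single probe sets did not overlap either, and the share among pairs of genes in general was not computed, the lack of overlap is given as a description of these pairs. The pairs were not tested against each other.

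Isoenzymes in other compartments carry out some of the same reactions. MDH1 minus MDH2, the cytosolic malate dehydrogenase, was 0.78, 1.13 and 0.78 on the K91A arrays and 0.00, -0.03 and 0.14 on the WT arrays. The mean differed by 0.86 without overlap (exact permutation p = 0.1, adjusted p = 0.125, n = 3 each). MDH2 itself had a log2 fold change of 0.22 (limma adjusted p = 0.435), and MDH3, the peroxisomal form, had 0.27 (adjusted p = 0.265). Neither passed. CIT1 minus CIT2, the peroxisomal citrate synthase, was -0.90, -0.51 and -0.09 on the K91A arrays and 0.19, 0.25 and 0.39 on the WT arrays. This mean was lower by -0.78 in K91A, without overlap (exact permutation p = 0.1, adjusted p = 0.125, n = 3 each). With K91A 3 counted as WT, MDH1 minus MDH2 differed by 0.73 (exact permutation p = 0.133) and CIT1 minus CIT2 by -0.89 (exact permutation p = 0.0667). The last p is the smallest that this unequal split of the arrays can give, so it is no stronger a result than the exact permutation p of 0.1.

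**Figure D3:**
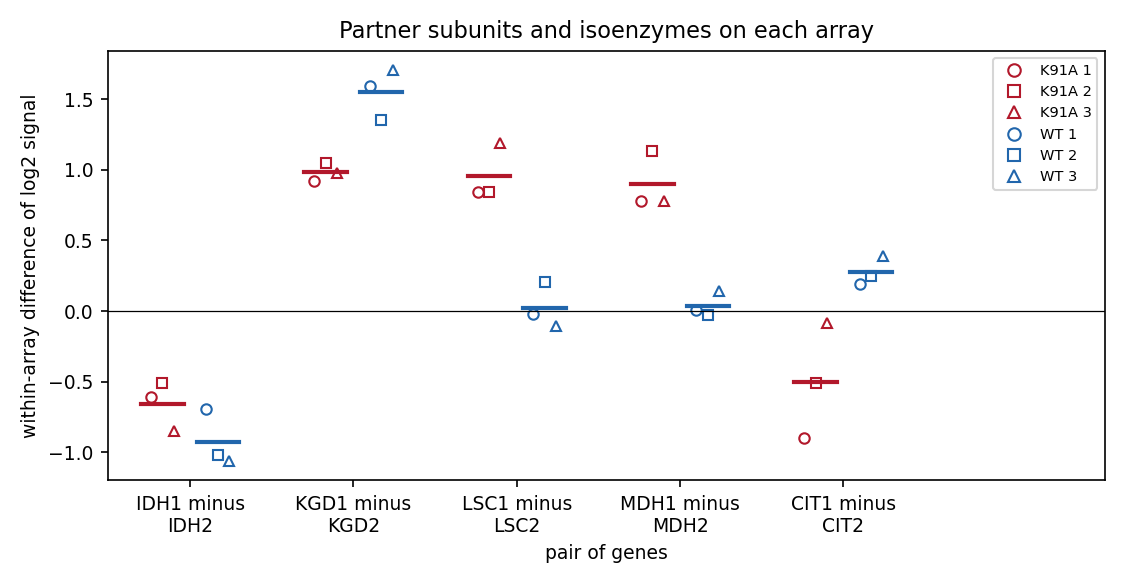
Difference of log2 signal between 2 genes on the same array for 5 pairs, with K91A arrays in red left of WT arrays in blue. Points are single arrays and bars are means of 3. LSC1 minus LSC2 has means of 0.96 in K91A and 0.02 in WT, and no pair passed the exact permutation test.

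Genes around the cycle were read from 8 lists, chosen with earlier results of these data known. Of their 72 genes 67 were tested, 12 were higher and 3 lower in K91A (17.9% and 4.48%, against 15.4% and 14.8% of all probe sets). With K91A 3 left out 14 of these 15 calls had a value and all 14 passed, and on the values as deposited 1 did, MAE1. Succinate dehydrogenase, the enzyme between succinyl-CoA ligase and fumarase that is also part of the respiratory chain, belongs to a list in which 3 of 9 were higher and 0 lower. SDH2, the iron-sulfur subunit, had log2 levels of 13.83, 13.86 and 13.71 on the K91A arrays and 12.54, 12.65 and 12.44 on the WT arrays. All K91A arrays were above all WT arrays (log2 fold change 1.25, SE 0.16, limma adjusted p = 0.0032, n = 3 each). SDH4, a membrane anchor subunit, also rose (0.99, adjusted p = 0.0109). SDH1, the flavoprotein subunit (0.63, adjusted p = 0.0894), and SDH3, the other anchor (0.08, adjusted p = 0.809), did not pass. SDH9, a paralog of SDH1, rose by 0.92 (adjusted p = 0.0242), and the assembly factors did not pass. The SDH4 call ended with median centring (0.75, adjusted p = 0.0626), and the SDH9 call ended without WT 1, WT 2, WT 3 or K91A 1 (adjusted p up to 0.0839).

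Of the 7 isoenzymes tested, 2 were higher and 0 lower, against 15.4% and 14.8% of all probe sets, and the median was 0.35. That median is the value of CIT3, which did not pass (limma adjusted p = 0.719) and rests on K91A 2. The log2 level of CIT3 was 12.24 on K91A 2 and between 9.6 and 10.5 on every other array. CIT2 rose by 0.99 (SE 0.26, limma adjusted p = 0.028), and its call ended without WT 1, WT 2 or WT 3 (adjusted p up to 0.0783) and with median centring. IDP2, the cytosolic NADP-linked isocitrate dehydrogenase, rose by 1.74 (SE 0.32, adjusted p = 0.0092). Its mitochondrial counterpart IDP1 was at -0.17 (adjusted p = 0.389). Of the 4 glyoxylate cycle genes 2 were higher and 0 lower, too few genes to read against these shares. ICL1, the isocitrate lyase, rose by 1.98 (adjusted p = 0.0039), and the malate synthase MLS1 rose by 1.57 (adjusted p = 0.0235). The MLS1 call ended without WT 2 or WT 3 (adjusted p up to 0.0598).

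The 10 genes of pyruvate dehydrogenase and of subunits shared with or attached to 2-oxoglutarate dehydrogenase moved in both directions, with 2 higher and 1 lower in K91A. With 15.4% of all probe sets higher and 14.8% lower, these counts are near the background. PDX1, which binds the E3 subunit to pyruvate dehydrogenase, fell by 0.89 on the log2 scale (SE 0.16, limma adjusted p = 0.0098). Its log2 levels were 11.15, 11.23 and 11.12 on the K91A arrays and 12.06, 11.99 and 12.12 on the WT arrays, without overlap. LPD1, the E3 subunit that serves both complexes, was at -0.49 (adjusted p = 0.0731), with all K91A arrays below all WT arrays, and did not pass. The pyruvate dehydrogenase kinase PKP1 rose by 1.35 (adjusted p = 0.0121), and the phosphatase PTC6 rose by 1.43 (adjusted p = 0.0105). The PKP1 call ended without WT 2 (adjusted p = 0.0552).

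Among 13 carriers and anaplerotic enzymes 1 was higher and 1 lower, against 15.4% and 14.8% of all probe sets. The higher one was SFC1, the carrier that exchanges succinate for fumarate, with log2 levels of 10.04, 11.94 and 10.43 on the K91A arrays and 8.62, 8.79 and 8.33 on the WT arrays. Its WT values lay between the 10.7 and 15.1 percentile of their arrays, so it passed the filter on dim signal only through K91A and had to differ. Its fitted log2 difference of 2.22 (limma adjusted p = 0.0174) is therefore a description. The call ended without any 1 WT array (adjusted p up to 0.0583), and without any 1 K91A array SFC1 fell below the filter and had no value. MAE1, the malic enzyme that turns malate into pyruvate, fell by 1.12 on the log2 scale (adjusted p = 0.0451), and that call ended without K91A 1 or any 1 WT array (adjusted p up to 0.136). The pyruvate carboxylase PYC1, which feeds oxaloacetate into the pathway, was at 0.61 (adjusted p = 0.0672). In the list of other reactions on cycle intermediates 2 of 10 were higher, near the share of all probe sets, and 0 lower. They were the glutamate dehydrogenases GDH2 (1.55, adjusted p = 0.0064), which makes 2-oxoglutarate from glutamate, and GDH3 (1.62, adjusted p = 0.0033), which runs the other way.

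Of the 7 regulators tested 1 fell and 0 rose, against 14.8% lower and 15.4% higher of all probe sets. HAP3, a DNA-binding subunit of the Hap2/3/4/5 activator, fell by 1.20 on the log2 scale (SE 0.20, limma adjusted p = 0.0066), with 9.90, 9.80 and 10.11 on the K91A arrays and 11.32, 11.07 and 11.01 on the WT arrays. HAP3 is 435 nt long, shorter genes had the lower fold changes across the array, and the part of length in its fall was not tested. It had no value with the length trend removed. Without scaling between arrays it was at -1.77 (limma adjusted p = 0.093) and did not pass. HAP4, the activation subunit whose level follows the carbon source, was at -0.04 (adjusted p = 0.935). RTG2 was at -0.14 (adjusted p = 0.652) and RTG3 at -0.40 (adjusted p = 0.25), and RTG1 was left out as dim. Transcripts of the mitochondrial genome gave 0 calls among 7 genes tested, with a median of 0.09 and a range of -1.20 to 1.33. ATP8, at the lower end, had log2 levels of 10.98, 11.77 and 7.05 on the K91A arrays, so its value rests on K91A 3. COX2, at the upper end, had 11.46, 8.89 and 11.37 on the K91A arrays. Its WT values lay between the 13.8 and 29.0 percentile of their arrays. All 7 genes overlapped between the strains, while 51.1% of all probe sets did not. These values rest on the brightest probe set of each gene. Other probe sets of COX1 were at 0.62 and 1.28 against 0.09, and another of COB was at 1.34 against 0.12. None of these passed.

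The profile of the 10 genes together, the mean of their centred log2 levels, was 0.15, -0.02 and 0.11 on the K91A arrays and 0.03, -0.06 and -0.21 on the WT arrays. The strains overlapped in it. The protein-coding genes outside the lists with the most similar profile over the 6 arrays, by Pearson's r, were GID10 (0.985), UBC1 (0.983), COQ3 (0.983), DTR1 (0.981) and SDS22 (0.981). COQ3 is a methyltransferase of ubiquinone synthesis. Their log2 fold changes were 0.76, 0.21, 0.30, 0.86 and 0.44, and none passed. Of 5301 protein-coding probe sets compared, 179 had an r over 0.9, so these genes are the top of a longer list.

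**Figure D4:**
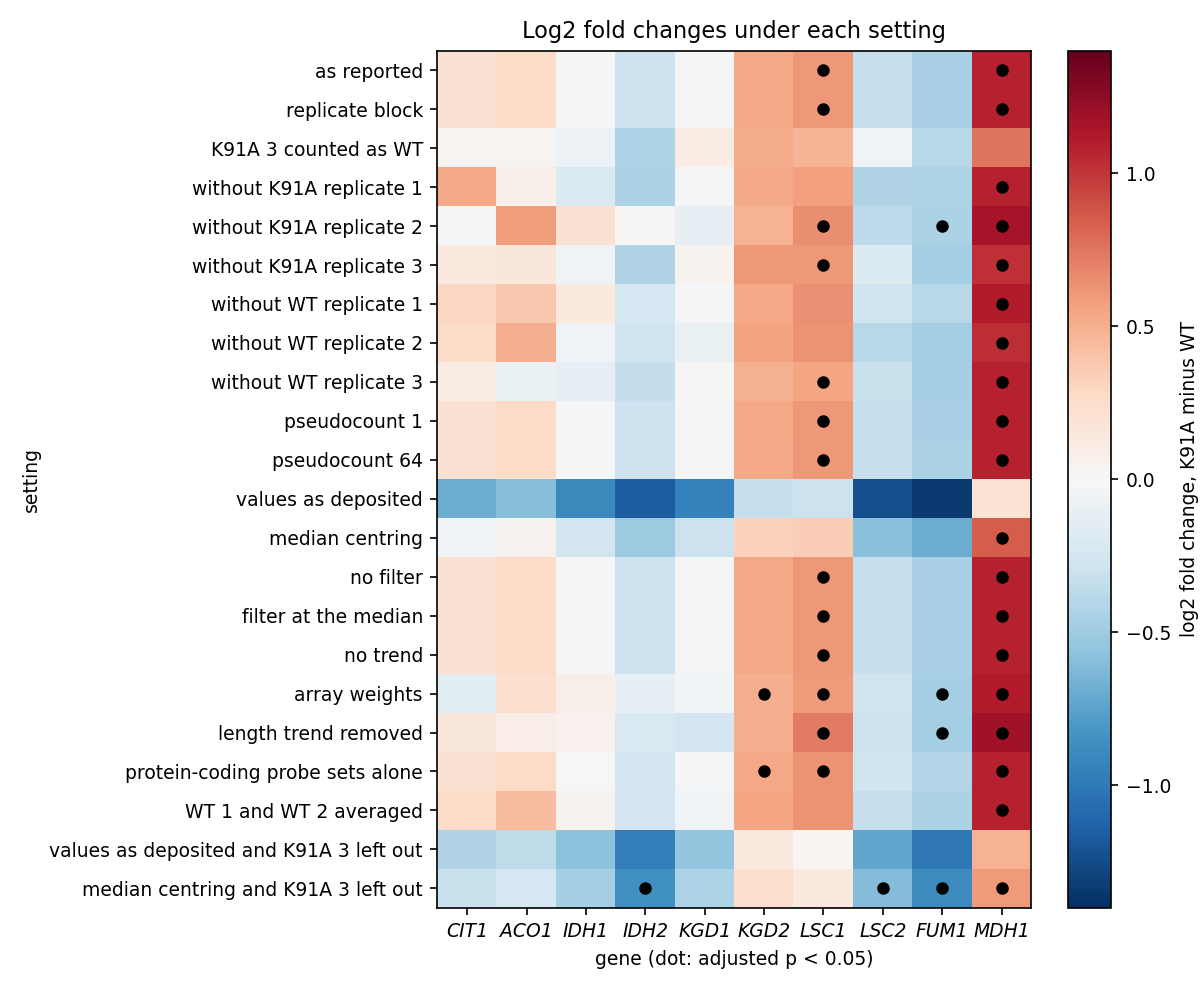
Log2 fold change, K91A minus WT, of the 10 citrate cycle genes (columns) as reported and under 21 other settings (rows), with dots where the adjusted p was under 0.05. MDH1 is positive in every row, and FUM1 and LSC2 are negative in every row. The 9 genes other than MDH1 are negative on the values as deposited.

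FUM1 and LSC2 were negative and MDH1 positive in each of the 21 other settings, which included array-to-array scaling, filters and arrays left out. LSC1 and KGD2 were negative in 1 of them, the values as deposited. CIT1 changed sign in 6, IDH1 in 5, ACO1 in 4, KGD1 in 3 and IDH2 in 1, and none of those values passed the threshold.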

How the data were processed

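Total RNA of 6 yeast samples was measured on single-sample arrays, 3 labelled K91A and 3 WT. The authors deposited an intensity for every probe set on each array, not log-transformed. The software, background correction and scaling behind these intensities are not given in the sources used here. Samples were grouped by title. Gene names came from the platform's annotation, and symbols were brought up to date by Entrez number with RefSeq genes (assembly R64), where all 6504 single-symbol probe sets were found. UGA5 is a synonym of UGA2 and was counted once.

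Values were set to log2(intensity + 16) and quantile normalized. Left out were 60 controls, 33 probe sets lacking values in a group and the dimmest 25% (2311). The remaining 6931 were tested in R 4.3.3 by limma 3.58.1 (linear model, empirical Bayes with an intensity trend), with Benjamini-Hochberg adjustment over all of them and a threshold of 0.05. All adjusted p-values of single genes are from this limma test. Genes with several probe sets were represented by the brightest. Within-array differences were compared by exact two-sided permutation. The fit was tested on simulated data.

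The members, lists and alternatives were chosen with earlier results of these data known. Named are all members, every list gene past the threshold and the 5 genes of most similar profile. A few others, of defining role or behind a median or range, were chosen after their values were seen. The alternatives were a replicate block, K91A 3 counted as WT, each array left out, pseudocounts of 1 and 64, median centring or no scaling (values as deposited), no filter or one at the median, no trend, array weights, protein-coding probe sets alone with or without each array's lowess trend on gene length removed, and WT 1 and WT 2 averaged. Leaving out K91A 3 together with no scaling or with median centring was added after seeing the data.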

Additional observations from a re-analysis of the deposited data

How the results depend on the processing

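The 10 citrate cycle genes gave 210 values under the 21 other settings. Of these, 170 kept the direction and the side of the threshold, 11 kept the direction but no longer passed, 8 kept it and newly passed and 21 changed sign. Among the 43 named genes followed through these settings, 58 values changed sign and 0 of those passed the threshold. Depth has no count here, and with no detection calls the margin over background is unknown.

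The count of probe sets called was 2091 as reported, 703 on the values as deposited, 1372 with the filter at the median (fewer were tested), 915 with WT 1 and WT 2 averaged and 0 with K91A 3 counted as WT (1056 at an unadjusted p under 0.05 in limma). With K91A 3 left out it was 1236 on the values as deposited. Without 1 array it was 841 (WT 2) to 2300 (K91A 2), and 925 without WT 1. Citrate cycle genes called higher, 2 as reported, were 0 with K91A 3 counted as WT and on the values as deposited (also 0 there without K91A 3). They were 1 with WT 1 and WT 2 averaged and with median centring, K91A 3 included or left out, and 1 to 2 without 1 array. KGD2 joined under array weights and with protein-coding probe sets alone, giving 3. Of all probe sets tested in these settings, 21.2% were higher under array weights and 17% with protein-coding probe sets alone. These exceed the 15.4% as reported. Citrate cycle genes called lower, 0 as reported, were 1 with array weights, 1 with the length trend removed and 0 to 1 without 1 array. They were 3 (IDH2, LSC2 and FUM1) with median centring and K91A 3 left out, where 24.3% of all probe sets were lower and 11.7% higher. So 3 of 10 is near the background of that setting. The share of all probe sets lower was 22.7% with array weights and 15.8% with the length trend removed. The median log2 fold change of the 10 genes was 0.10 as reported, -0.80 on the values as deposited (all probe sets -0.82), -0.15 with median centring, and -0.48 and -0.37 in those settings with K91A 3 left out. Without 1 array it was -0.039 to 0.21. Calls higher and lower were 1068 and 1023 as reported, and 32 and 671 on the values as deposited.

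Values that changed sign were as follows. On the values as deposited they were CIT1 -0.69, ACO1 -0.60, KGD2 -0.33, LSC1 -0.30, SDH1 -0.26, SDH3 -0.81, MDH2 -0.65, MDH3 -0.58, PYC1 -0.17, GID10 -2.15e-05, UBC1 -0.68, COQ3 -0.51 and SDS22 -0.43. With K91A 3 left out as well they were CIT1 -0.43, ACO1 -0.36, SDH3 -0.54, MDH2 -0.37, MDH3 -0.22, UBC1 -0.35, COQ3 -0.11 and SDS22 -0.069. Median centring gave CIT1 -0.044, SDH3 -0.17, MDH2 -0.0065 and UBC1 -0.037. Median centring without K91A 3 gave CIT1 -0.31, ACO1 -0.24, SDH3 -0.42, MDH2 -0.26, MDH3 -0.10, UBC1 -0.24 and COQ3 -0.0015. With K91A 3 counted as WT they were KGD1 0.10, SDH3 -0.064, HAP4 0.10, RTG2 0.15, DLD3 1.03 and PDA1 0.058. Array weights gave CIT1 -0.14, IDH1 0.082 and SDH3 -0.045. IDH1 was 0.063 with the length trend removed and 0.049 with WT 1 and WT 2 averaged, where HAP4 was 0.14. Without 1 array CIT1 was -0.013 to 0.53, ACO1 -0.095 to 0.59, IDH1 -0.20 to 0.22, IDH2 -0.44 to 0.017, KGD1 -0.12 to 0.048, SDH3 -0.14 to 0.20, HAP4 -0.40 to 0.17, RTG2 -0.25 to 0.028 and DLD3 -1.67 to 0.21. Beyond the sign changes that scaling makes by its own construction, the cause was not tested.

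The labels number the replicates of both strains. The correlation of deviations of same-numbered arrays was 0.167, -0.152 and -0.0052, and that of arrays with unlike numbers was -0.212 to 0.164. So few values cannot settle whether the numbers pair the samples, and the labels do not say what the numbers mean. With the replicate number as a block 1535 probe sets were called, and the same 2 citrate cycle genes passed, MDH1 with an adjusted p of 0.019 and LSC1 with 0.0479. Of the 15 calls in the lists around the cycle 14 passed with the block, and MAE1 had an adjusted p of 0.0580.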

Other observations

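Some genes tied to the cycle rested on 1 array. KGD4, a small subunit that joins the E3 component to 2-oxoglutarate dehydrogenase, had log2 levels of 12.75, 12.81 and 12.66 on the K91A arrays and 9.42, 12.93 and 12.42 on the WT arrays. Its log2 fold change of 1.15 (limma adjusted p = 0.33) was 0.06 without WT 1. DLD3, an enzyme of hydroxyglutarate and lactate metabolism and a known retrograde target, had log2 levels of 12.64, 13.04 and 9.35 on the K91A arrays and 12.66, 12.87 and 12.35 on the WT arrays. Its log2 fold change of -0.95 (limma adjusted p = 0.45) was 0.21 without K91A 3. PDA1, the E1 alpha subunit of pyruvate dehydrogenase, was at -0.23 (limma adjusted p = 0.326).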
